A study of Mus musculus with 8 samples.

Results

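The glucocorticoid response and metallothionein genes were followed in lung RNA of a COPD mice model and its control mice, given a control diet or a diet with the herbal medicine TJ-41 (hochuekkito). They are 10 genes chosen by symbol and function: the glucocorticoid target genes Fkbp5, Tsc22d3, Zbtb16, Sgk1, Klf9, Cdkn1a and Pdk4, the glucocorticoid receptor gene Nr3c1, and the metallothionein genes Mt1 and Mt2. All 10 were found among the 52636 Ensembl genes counted in each library, and all 10 passed the filter on low counts that left 20546 genes for testing.

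Glucocorticoid hormones enter the cell and bind the receptor encoded by Nr3c1, which leaves a complex of heat shock proteins, moves to the nucleus and binds glucocorticoid response elements near its target genes. Several targets feed back on the hormone's action: FKBP51, the product of Fkbp5, lowers the receptor's affinity for hormone, and GILZ, the product of Tsc22d3, carries part of the anti-inflammatory action. The hormone is secreted with a daily rhythm in mice. Metallothioneins are small cysteine-rich proteins that bind zinc and copper; their genes are switched on through metal response elements by the zinc-sensing factor MTF1, and also by glucocorticoids and by inflammation.

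The 8 libraries came from wild-type lung, 2 in each of 4 groups. Per the study's methods the mice were male C57BL/6, the diets (control, or with 2% TJ-41) began at 8 weeks of age, and a group became the COPD mice model by porcine pancreatic elastase (PPE) at 10 weeks and then 3 doses of 100 µg lipopolysaccharide (LPS) from 12 weeks, both into the airways. Control mice received PBS in place of both agents. The groups are written below as PBS/CD and PBS/TJ-41 (control mice on the control diet, CD, or on TJ-41) and COPD/CD and COPD/TJ-41. In the labels the herbal diet is TJ41 in titles but TJ4 as a treatment, taken here as the same thing. The day and hour of RNA collection and the number of mice behind a library are not given in the sources used here, and nothing says that the 2 libraries of a group came from separate mice, so p-values measure the spread between libraries only.

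Each library held between 18767295 and 20888042 counts on genes, and a count of 0 allowed up to 3 counts, or 0.153 to 0.162 CPM (read counts relative to the library total, scaled with TMM factors), for counting error alone. Surfactant and club cell genes were abundant in every library (Sftpc stood at 9504 to 25920 CPM and Scgb1a1 at 11580 to 28870 CPM). Replicate 2 of COPD/CD stood apart. The SD over genes of the log2 difference between its group's replicates was 0.798, against 0.394 to 0.469 in the other groups. That library had the highest summed CPM for the lists of acute phase genes (2310, against 883.1 to 1219 in the other 7 libraries), immediate early genes (1346, against 544 to 899.6), club cell markers (33690) and red cell genes (3755), and the lowest for neutrophil markers (66.04). For the results that it moved most, values without it are also given.

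**Figure D1:**
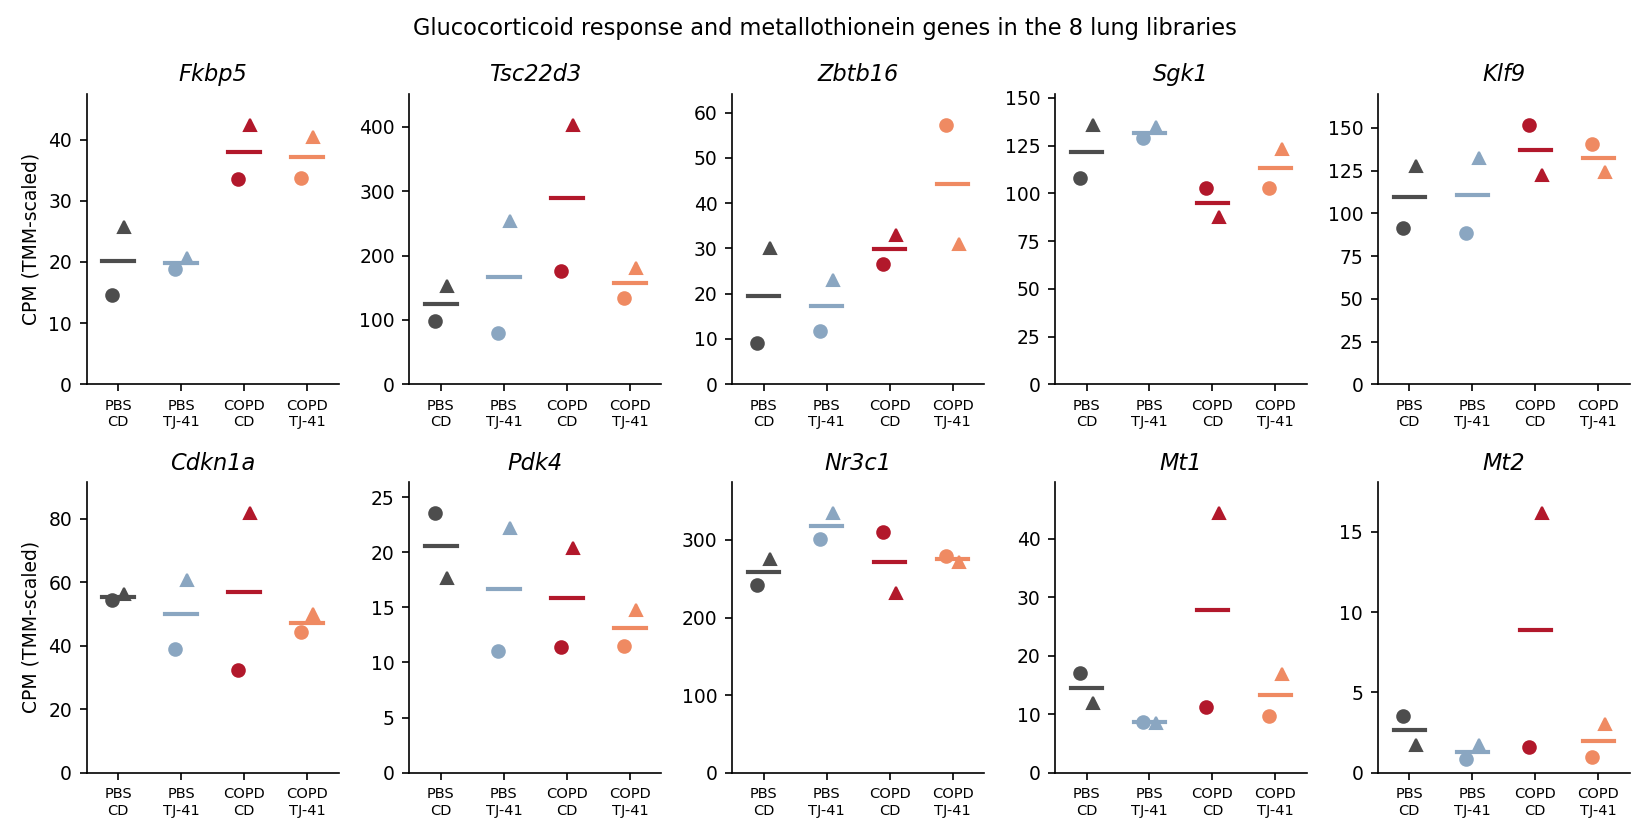
Levels of the 10 genes in each library, in CPM scaled with TMM factors, on linear axes from 0. Groups are named as in the text, circles are replicate 1, triangles replicate 2, and the bar is the mean of the 2 libraries; the 4 libraries of the COPD mice model lie above all 4 control libraries for Fkbp5 alone, and Mt1 and Mt2 each have 1 library far above the rest.

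Between genes, levels were set side by side per length of exons, as RPKM over all 8 libraries. Tsc22d3 had the highest mean, 42.6 ± 23.8 RPKM (SD, n = 8), followed by Nr3c1 with 36.5 ± 4.46, Klf9 with 25.4 ± 4.6, Sgk1 with 23.5 ± 3.61, Cdkn1a with 14.8 ± 4.26 and Mt1 with 12.9 ± 9.58. The lowest means were those of Mt2 (6.3 ± 8.7 RPKM), Zbtb16 (5.25 ± 2.82), Pdk4 (4.72 ± 1.46) and Fkbp5 (3.04 ± 1.09). Nr3c1 exceeded Klf9 in 8 of 8 libraries, and Mt1 exceeded Mt2 in 8 of 8. The joined exons of Mt1, 1246 bases, cover its gene from end to end, so its RPKM may be understated. Other neighbours in this order changed places between libraries: Tsc22d3 was above Nr3c1 in 4 of 8, Klf9 above Sgk1 in 5 of 8, Mt2 above Zbtb16 in 2 of 8, and Zbtb16 above Pdk4 and Pdk4 above Fkbp5 in 5 of 8 each.

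The question whether the COPD mice model changes these genes was asked on each diet and over the mean of both diets. Differential expression genes (DEGs) were those that passed 0.05 on the false discovery rate and 1 on the absolute log2 fold change in edgeR's quasi-likelihood test. None of the 10 genes was a DEG on the control diet, on the TJ-41 diet or over both, where 0.122%, 0.0779% and 0.443% of all genes tested were. The count was also 0 by DESeq2 under the same rule, and by edgeR's exact test on each diet. Without the fold threshold, DESeq2 called 1 member, Fkbp5, over both diets (adjusted p = 0.00121). At an unadjusted p under 0.05 the quasi-likelihood test found 2 of the 10 higher and none lower: Fkbp5 and Tsc22d3 on the control diet, and Fkbp5 and Zbtb16 on the TJ-41 diet and over both. The corresponding share of all genes higher was 4.68% on the control diet, 3.55% on the TJ-41 diet and 6.18% over both. The median log2 fold change of the 10 genes was 0.47 on the control diet, 0.09 on the TJ-41 diet and 0.43 over both, against 0.0074, -0.0016 and -0.0017 for all genes. With replicate 2 of COPD/CD left out, the members' median became 0.012 on the control diet and 0.088 over both. On the control diet Fkbp5 was then higher and Cdkn1a and Pdk4 lower at an unadjusted p under 0.05, where 7.21% of all genes were higher and 8.28% lower. Over both diets Fkbp5, Zbtb16 and Klf9 were higher and Cdkn1a and Pdk4 lower, where 6.5% and 6.13% were. None of the 10 was a DEG.

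**Figure D2:**
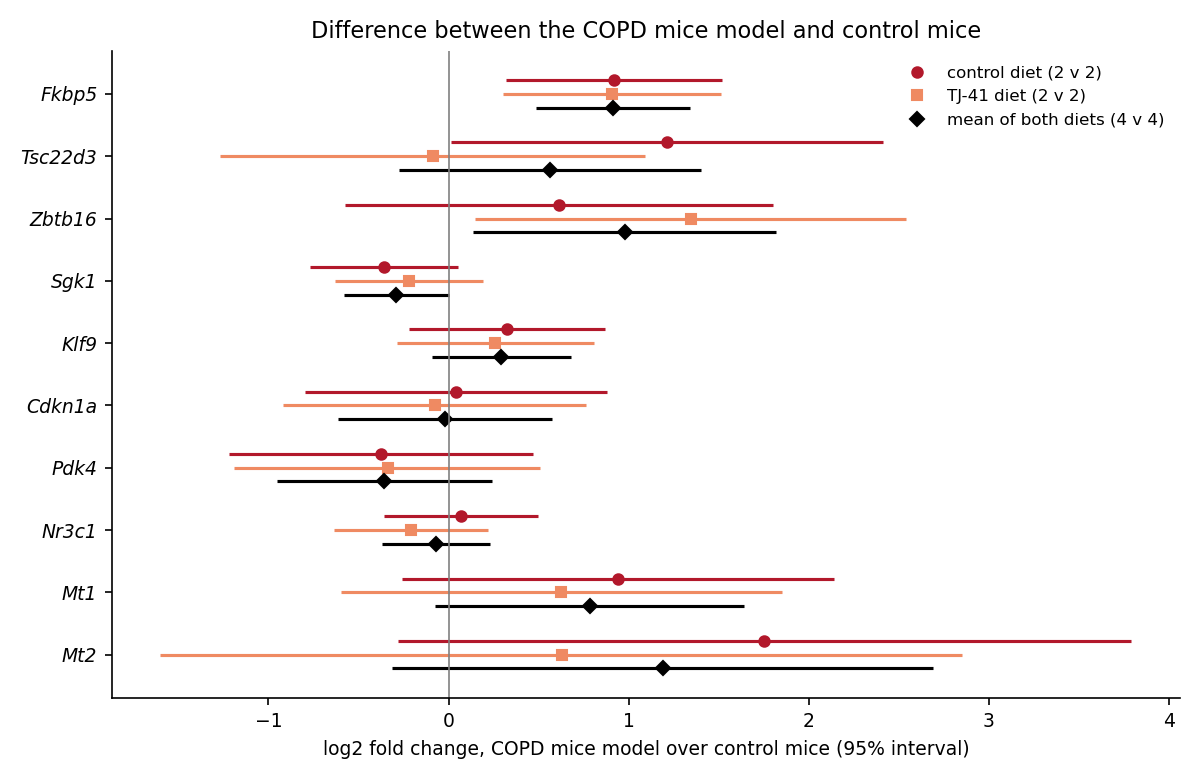
Log2 fold change of each gene in the COPD mice model over control mice, with its 95% interval from edgeR's quasi-likelihood fit, on the control diet (circles), on the TJ-41 diet (squares) and over the mean of both (diamonds). The Fkbp5 estimates of 0.92, 0.91 and 0.91 lie close together with intervals above 0, while those of Tsc22d3 (1.21 and -0.089) lie far apart and the Mt2 intervals are the widest.

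Fkbp5 (ENSMUSG00000024222, chromosome 17, 28399094 to 28517527 on the minus strand of GRCm38, the build of all gene positions given), the co-chaperone that restrains the receptor, was the member with the clearest difference. It had 14.6 and 25.6 CPM in replicates 1 and 2 of PBS/CD and 18.9 and 20.7 CPM in PBS/TJ-41. Levels were 33.6 and 42.5 CPM in COPD/CD and 33.8 and 40.4 CPM in COPD/TJ-41. All 4 libraries of the COPD mice model were above all 4 control libraries, with a mean of 37.6 ± 4.55 CPM (SD, n = 4) against 19.96 ± 4.58 CPM (SD, n = 4). Over all genes tested, 3.35% had 4 higher and 4 lower libraries in this way. In bulk lung RNA such a difference cannot tell more RNA per cell from more cells that express the gene.

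Fkbp5 had a log2 fold change of 0.92 (SE 0.27) on the control diet and 0.91 (SE 0.27) on the TJ-41 diet, in comparisons that share no library. Over both diets it was 0.91 (SE 0.19, 95% interval 0.486 to 1.34), rank 194 of 20546 genes by p. The adjusted p was 0.405, 0.536 and 0.0942 in turn (quasi-likelihood test in edgeR, adjusted by Benjamini-Hochberg over all genes tested), so none passed. Over 15 other ways of processing, the log2 fold change over both diets stayed between 0.74 and 1.15. Its adjusted p fell below 0.05 in 5 of them: with DESeq2 (0.00121), with all genes that had a count (0.0123), with gene length and GC content corrected for (0.0367), and without replicate 1 (0.00552) or replicate 2 (0.0417) of COPD/CD.

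The genes whose levels followed Fkbp5 most closely over the 8 libraries, among the 18047 genes whose mean reached 1 CPM, were Ciart (Pearson r = 0.976), Cry2 (0.975), Gdf6 (0.965), Rgs16 (0.964) and Rac3 (0.963). These correlations are a description over libraries that differ in group, depth and composition. Ciart and Cry2 encode repressors of the circadian clock. Ciart stood at 19 to 28.8 CPM in the COPD mice model and at 7.79 to 14.4 CPM in control mice. Cry2 stood at 83.9 to 92.9 CPM and at 43.3 to 69.7 CPM.

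**Figure D3:**
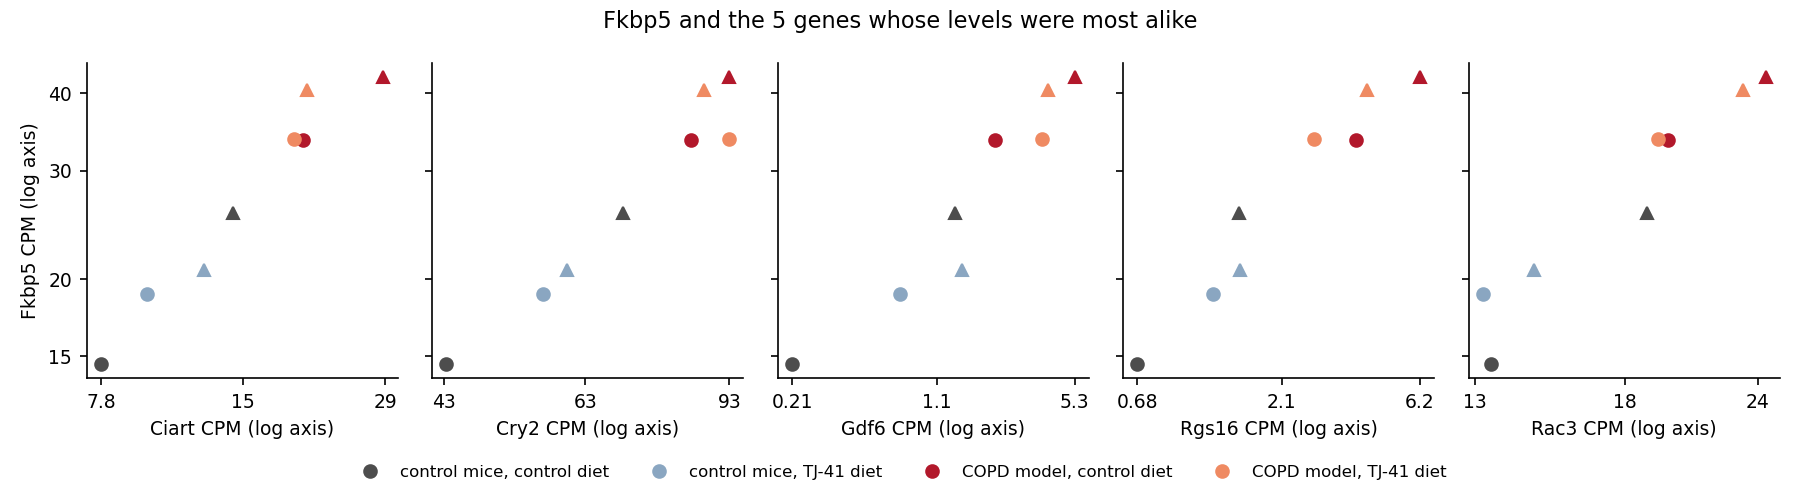
Fkbp5 against the 5 genes most like it, in CPM on log axes, with 1 point per library; circles are replicate 1 and triangles replicate 2. Points rise together from the control library with 14.6 CPM of Fkbp5 to the library of the COPD mice model with 42.5 CPM, and the COPD libraries lie above and to the right of the control libraries in all 5 panels, which follows from choosing the genes for their likeness to Fkbp5.

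Clock genes were also read as a list beside Fkbp5. Of 17 listed clock genes, 8 rose and 3 fell as DEGs over both diets. The D-box activators Dbp (log2 fold change 3.89, SE 0.14), Hlf (2.03) and Tef (1.72) rose. So did the repressors Per2 (1.90), Per3 (2.03), Bhlhe41 (2.27), Nr1d1 (1.40) and Nr1d2 (1.502). The activators Arntl (-2.93, SE 0.26) and Npas2 (-2.71) and the repressor Nfil3 (-1.35) fell. The summed level of the list was 1886 to 1959 CPM in the COPD mice model and 715.6 to 957.9 CPM in control mice, and none of the 17 genes was at 0 in a library. The part of the clock difference in the Fkbp5 values was not tested. The hour of collection is not given, so a difference in hour between the model and the controls cannot be told apart from the model itself.

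The Fkbp5 promoter is shown for the letters CACGTG, the E-box that the clock activators bind, because 2 of the 5 genes nearest in pattern, Ciart and Cry2, are clock genes. It is the RefSeq window of 250 bases before and 50 after a start of the gene in GRCm38.p6, chr17:28486100-28486399 on the minus strand, written 5′ to 3′ with the E-box in capitals. This start lies 31378 bases inside the gene from its outermost annotated start in GENCODE, so it belongs to another transcript start.
Fkbp5: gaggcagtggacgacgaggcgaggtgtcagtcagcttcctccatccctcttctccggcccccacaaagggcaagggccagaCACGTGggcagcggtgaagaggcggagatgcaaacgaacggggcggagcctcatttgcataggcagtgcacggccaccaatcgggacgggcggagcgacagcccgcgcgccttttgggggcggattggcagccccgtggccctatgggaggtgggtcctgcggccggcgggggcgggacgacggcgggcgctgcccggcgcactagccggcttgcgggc
The E-box begins 169 bases before the start. Either strand of 7.15% of the 32851 RefSeq windows of this length holds these letters, and the glucocorticoid core AGAACA is not in this window.

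Tsc22d3 (ENSMUSG00000031431, chromosome X, 140539528 to 140600659), which encodes the anti-inflammatory mediator GILZ, varied widely within groups. It had 98.0 and 152 CPM in PBS/CD and 80.1 and 254 CPM in PBS/TJ-41. Levels in the COPD mice model were 176 and 403 CPM in COPD/CD and 133 and 181 CPM in COPD/TJ-41. The replicates differed 3.18-fold in PBS/TJ-41 and 2.29-fold in COPD/CD. On the control diet both libraries of the COPD mice model were above both control libraries, as for 13.6% of all genes, and the log2 fold change was 1.21 (SE 0.53, adjusted p = 0.643). On the TJ-41 diet the groups overlapped, with a log2 fold change of -0.089 (SE 0.52, adjusted p = 0.970), and over both diets it was 0.56 (SE 0.37, adjusted p = 0.625). Leaving out replicate 1 of COPD/CD raised the control diet value to 1.69 (adjusted p = 0.0467), and leaving out replicate 2 of COPD/CD lowered it to 0.49 and the value over both diets to 0.21. Leaving out replicate 2 of PBS/TJ-41 or replicate 1 of COPD/TJ-41 turned the TJ-41 value to 0.97 and 0.12.

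Zbtb16 (ENSMUSG00000066687, chromosome 9, 48654297 to 48836222), a zinc finger transcription factor strongly induced by glucocorticoids in many tissues, had 9.05 and 30.01 CPM in PBS/CD and 11.7 and 23.0 CPM in PBS/TJ-41. It reached 26.6 and 33.1 CPM in COPD/CD and 57.3 and 30.9 CPM in COPD/TJ-41. Groups overlapped on the control diet, where replicate 2 of PBS/CD lay between the COPD libraries, and did not on the TJ-41 diet, as for 28.5% of all genes higher there. The log2 fold change was 0.61 (SE 0.53, adjusted p = 0.872) on the control diet, 1.35 (SE 0.53, adjusted p = 0.721) on the TJ-41 diet and 0.98 (SE 0.37, adjusted p = 0.399) over both. Without replicate 1 of PBS/CD, its lowest library, the control diet value became -0.0077. Its levels over the 8 libraries ran with those of Klf9 (Pearson r = 0.835) and Fkbp5 (0.822).

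Klf9 (ENSMUSG00000033863, chromosome 19, 23141226 to 23168134), a transcription factor that is a direct target of the receptor, differed less. PBS/CD had 91.3 and 128 CPM and PBS/TJ-41 88.8 and 133 CPM, while COPD/CD had 152 and 123 CPM and COPD/TJ-41 141 and 124 CPM. The ranges of the model and the control libraries overlapped. Its log2 fold change was 0.32 on the control diet, 0.26 on the TJ-41 diet and 0.29 over both (SE 0.17, adjusted p = 0.592).

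Sgk1 (ENSMUSG00000019970, chromosome 10, 21882184 to 21999903), a kinase that increases sodium uptake through epithelial channels, had lower values in the COPD mice model. It had 108 and 136 CPM in PBS/CD and 129 and 135 CPM in PBS/TJ-41, and then 103 and 87.4 CPM in COPD/CD and 103 and 123 CPM in COPD/TJ-41. Both COPD libraries were below both controls within each diet, as for 14.1% and 27.9% of all genes. Fold changes on the log2 scale were -0.36 (SE 0.18, adjusted p = 0.714), -0.22 (SE 0.18, adjusted p = 0.785) and, over both diets, -0.29 (SE 0.13, 95% interval -0.581 to 0.0013, adjusted p = 0.483). Its sign held in all 15 other ways of processing over both diets, from -0.37 to -0.20.

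Sgk1 was also the member with a complete glucocorticoid response element in a promoter window. RefSeq windows existed for 8 of the 10 genes, 16 windows in all, and the element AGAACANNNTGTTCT stood in 1 of the 6 Sgk1 windows and in 3 of the 32851 windows of all genes (0.00913%). That window is shown with the element in capitals, chr10:21993640-21993939 on the plus strand of GRCm38.p6. Its start lies 111706 bases inside the gene from the outermost annotated start.
Sgk1: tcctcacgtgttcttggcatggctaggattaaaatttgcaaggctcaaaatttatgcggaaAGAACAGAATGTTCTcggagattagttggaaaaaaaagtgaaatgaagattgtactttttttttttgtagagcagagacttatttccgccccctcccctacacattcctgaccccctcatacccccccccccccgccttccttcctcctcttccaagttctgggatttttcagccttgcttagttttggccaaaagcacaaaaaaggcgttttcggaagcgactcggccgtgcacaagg
The element begins 189 bases before the start and reads the same core on both strands. The same window holds the E-box letters CACGTG, left in lower case, 246 bases before the start, and Sgk1 had lower values in the model while Fkbp5 had higher. The core AGAACA alone stood in 4 of the 16 windows, 3 of Sgk1 and 1 of Tsc22d3, and in 19.0% of all windows. Glucocorticoid response elements often lie far from a start, outside such windows, and a match in letters is no measurement of binding.

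Cdkn1a (ENSMUSG00000023067, chromosome 17, 29090976 to 29100727), the cell cycle inhibitor p21 and a target of p53 as well as of glucocorticoids, had 54.6 and 56.3 CPM in PBS/CD and 39.1 and 60.7 CPM in PBS/TJ-41. COPD/CD had 32.3 and 81.8 CPM, the lowest and the highest of all libraries, and COPD/TJ-41 had 44.4 and 50.1 CPM. Its log2 fold change was 0.042 (SE 0.37) on the control diet, -0.078 (SE 0.37) on the TJ-41 diet and -0.018 over both (SE 0.26, 95% interval -0.613 to 0.576, adjusted p = 0.983), and the last ran from -0.42 to 0.24 as each library was left out. When replicate 2 of COPD/CD was left out, the control diet value became -0.78 and that over both diets -0.42. Of 10 other p53 target genes, 9 had a log2 fold change above 0 over both diets, where 49.8% of all genes did, and 3 were higher at an unadjusted p under 0.05, where 6.18% were. Their median was 0.35 and none was a DEG. Without replicate 2 of COPD/CD, 6 of the 10 were above 0 and the median was 0.038. Of the 50-base stretches of Cdkn1a exons, 8.49% also occur in other genes, so part of its counts is uncertain.

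Pdk4 (ENSMUSG00000019577, chromosome 6, 5483351 to 5496309), the kinase that turns off pyruvate dehydrogenase in fasting, had 23.5 and 17.7 CPM in PBS/CD and 11.01 and 22.2 CPM in PBS/TJ-41. COPD/CD had 11.4 and 20.4 CPM and COPD/TJ-41 11.5 and 14.7 CPM, so the model and the control libraries overlapped. Its log2 fold change was -0.37 on the control diet, -0.34 on the TJ-41 diet and -0.36 over both (SE 0.26, adjusted p = 0.661). Without replicate 2 of PBS/TJ-41, the TJ-41 value became 0.25. With replicate 2 of COPD/CD left out, the control diet value became -0.85 and that over both diets -0.59. The list of 10 fasting genes had 5 members on each side of 0 over both diets, a median of -0.03 and no DEG. When replicate 2 of COPD/CD was left out, 8 of them were below 0, with a median of -0.13, and Angptl4 moved from -0.71 to -1.38.

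The receptor itself, Nr3c1 (ENSMUSG00000024431, chromosome 18, 39410545 to 39519421), held the narrowest range of the members relative to its level. It had 242 and 275 CPM in PBS/CD, 301 and 335 CPM in PBS/TJ-41, 311 and 232 CPM in COPD/CD and 279 and 271 CPM in COPD/TJ-41. Within the TJ-41 diet both COPD libraries were below both controls, as for 27.9% of all genes. In the model its log2 fold change was 0.069 (SE 0.19) on the control diet (0.27 without replicate 2 of COPD/CD), -0.21 (SE 0.19) on the TJ-41 diet and -0.070 over both (SE 0.13, adjusted p = 0.860). The 95% interval over both diets ran from -0.371 to 0.231, and leaving out each library moved the value from -0.18 to 0.036. Of 18 genes of the receptor's chaperones, hormone-converting enzymes, cofactors and related factors, 17 were tested, none was a DEG, and the median over both diets was -0.10. Hsp90aa1, the heat shock protein that holds the receptor ready for hormone, had 139 to 252 CPM in the COPD mice model and 225 to 357 CPM in control mice (log2 fold change -0.48, SE 0.17, adjusted p = 0.358). It was named after its values were seen, as the 1 gene of that list at an unadjusted p under 0.05, where 4.21% of all genes were lower. Without replicate 2 of COPD/CD 5 of the 17 were lower at that level, where 6.13% of all genes were, and none was a DEG.

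The metallothionein genes Mt2 (ENSMUSG00000031762, 94172664 to 94173568) and Mt1 (ENSMUSG00000031765, 94179082 to 94180327) lie side by side on the plus strand of chromosome 8, with 5513 bases between them. Their levels ran together over the 8 libraries (Pearson r of log2 CPM 0.974). Mt1 had 17.1 and 11.9 CPM in PBS/CD, 8.71 and 8.49 CPM in PBS/TJ-41, 11.3 and 44.4 CPM in COPD/CD, and 9.65 and 16.9 CPM in COPD/TJ-41. Mt2 had 3.56 and 1.71 CPM, 0.871 and 1.73 CPM, 1.62 and 16.2 CPM, and 0.991 and 3.02 CPM in the same order. For both genes 1 library, replicate 2 of COPD/CD, was far above the other 7, and the other 3 libraries of the COPD mice model lay within the range of the controls. Within the TJ-41 diet both COPD libraries were above both controls for Mt1, as for 28.5% of all genes, and the groups overlapped for Mt2.

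The replicates of that group differed 3.92-fold for Mt1 and 9.99-fold for Mt2. Mt1 had a log2 fold change of 0.94 (SE 0.53, adjusted p = 0.765) on the control diet, 0.63 (SE 0.54, adjusted p = 0.790) on the TJ-41 diet and 0.78 (SE 0.38, adjusted p = 0.519) over both. That of Mt2 was 1.75 (SE 0.90, adjusted p = 0.719), 0.63 (SE 0.99, adjusted p = 0.867) and 1.19 (SE 0.67, adjusted p = 0.577). With replicate 2 of COPD/CD left out, the control diet values became -0.36 for Mt1 and -0.70 for Mt2, and the values over both diets became 0.14 for Mt1 and -0.027 for Mt2. On the TJ-41 diet the Mt2 value became -0.38 without replicate 2 of COPD/TJ-41. Without replicate 1 of COPD/CD the control diet values became 1.61 (adjusted p = 0.0105) and 2.61 (adjusted p = 0.0147), and the 1 library left there was then assumed to vary like the other groups. On the control diet the sign and the call for both genes thus depended on which of these 2 libraries was kept, while the Mt1 value over both diets stayed above 0 as each library was left out.

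**Figure D4:**
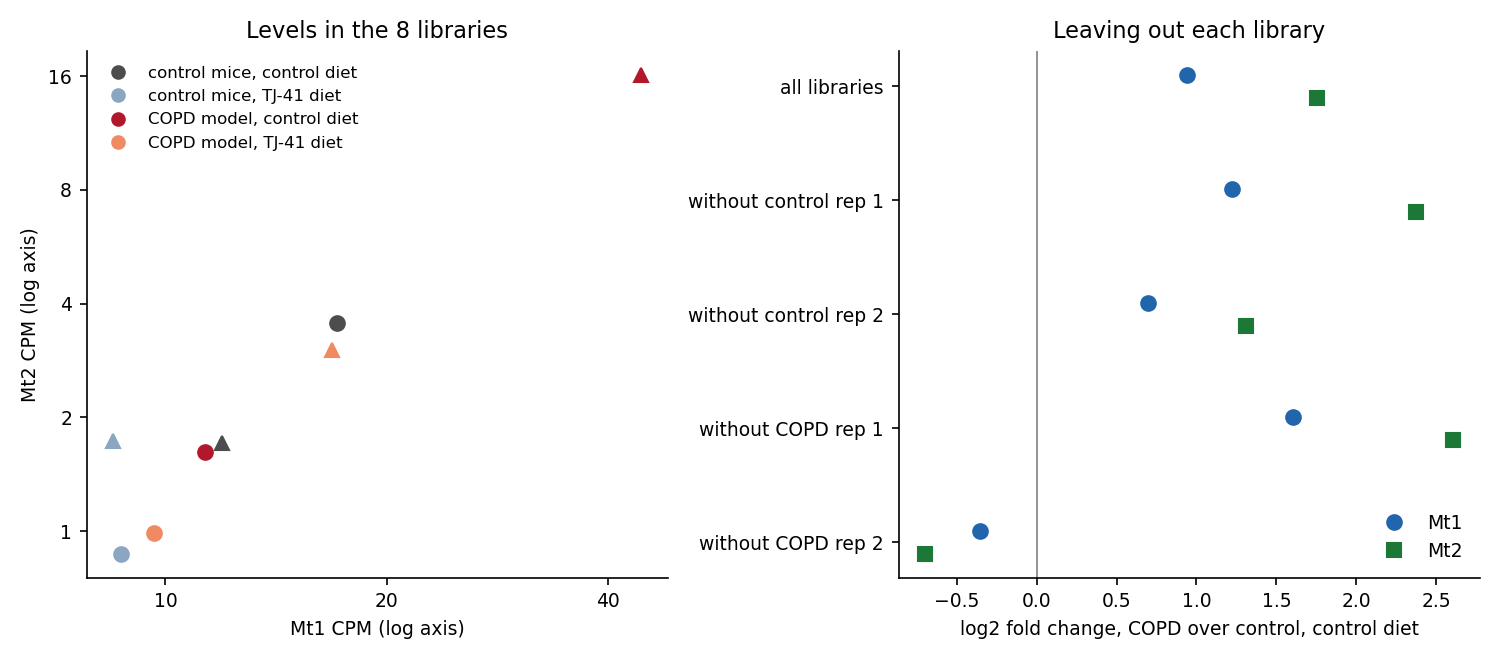
Left, Mt2 against Mt1 in CPM on log axes with 1 point per library (circles replicate 1, triangles replicate 2); right, log2 fold change of both genes in the COPD mice model over control mice on the control diet, with all libraries and with each library of the 2 groups left out in turn. The library at 44.4 and 16.2 CPM stands alone, and without it both fold changes move from above 0 to -0.36 and -0.70.

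Other values moved with these genes in that library. Its summed CPM for 14 acute phase genes was 2310, and Saa3, an inducible serum amyloid gene, was at 57.8 CPM there against 1.56 to 7.72 CPM elsewhere. Hmox1, the haem-degrading enzyme, was at 81.1 CPM there against 21.9 to 65.1 CPM elsewhere, and Ftl1, the ferritin light chain, at 339 CPM against 89.0 to 209 CPM. Red cell genes summed to 3755 CPM against 873.6 to 2735 CPM, and AT2 cell markers to 37580 CPM against 18500 to 28170 CPM, with no marker of these lists at 0 in a library. The deviation of that library's log2 CPM from the gene means had a correlation over genes of 0.352 with GC content, against -0.442 to 0.224 in the other libraries. The part of each of these in the metallothionein values was not tested. The 5 genes most like Mt2 over the libraries, Rnf185 (Pearson r = 0.981), Cisd1 (0.976), Snrpe (0.976), Ppp1r11 (0.976) and Fez2 (0.968), had log2 fold changes over both diets of only 0.053 to 0.37.

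The depth behind Mt2 was low. It had 17 to 315 counts a library, against 157 to 866 for Mt1, and Mt1 had 2.75 times the counts of Mt2 in the library that stood apart and 4.81 to 10 times in the others. Of the 588 exonic bases of Mt2, 432 overlap the antisense gene Gm45774 on the opposite strand, which had 1 to 13 counts. Whether strand was used in counting is not given in the sources used here, and reads over the overlap may be missing from both genes, so the Mt2 level is uncertain.

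The promoters of the pair are shown with their metal response element cores (TGCACNC or TGCGCNC on either strand) in capitals, since the genes moved together. They are the RefSeq windows chr8:94178839-94179138 for Mt1 and chr8:94172368-94172667 for Mt2, on the plus strand of GRCm38.p6, from 250 bases before to 50 after each start.
Mt1: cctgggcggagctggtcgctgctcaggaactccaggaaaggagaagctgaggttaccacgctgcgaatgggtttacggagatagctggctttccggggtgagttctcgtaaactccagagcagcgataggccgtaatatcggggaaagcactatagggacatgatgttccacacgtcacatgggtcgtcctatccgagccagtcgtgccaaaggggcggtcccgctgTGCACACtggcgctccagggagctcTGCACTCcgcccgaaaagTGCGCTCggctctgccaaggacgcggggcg
Mt2: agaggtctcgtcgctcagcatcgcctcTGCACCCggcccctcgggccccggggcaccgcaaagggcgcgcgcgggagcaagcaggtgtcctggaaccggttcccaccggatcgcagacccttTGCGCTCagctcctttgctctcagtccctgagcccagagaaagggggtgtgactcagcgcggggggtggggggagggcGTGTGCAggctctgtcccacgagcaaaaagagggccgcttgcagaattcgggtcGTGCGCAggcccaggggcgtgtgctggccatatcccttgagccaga
Mt1 has 3 cores, beginning at 23 bases before the start and at bases 3 and 21 after it, all on the plus strand. Mt2 has 4 cores, at 223, 128 and 50 bases before the start and at base 5 after it, the first 2 on the plus strand and the others on the minus strand. At least 3 cores were found in 1.97% of all windows and at least 4 in 0.517%. The Mt2 window also holds an antioxidant response element core (TGACNNNGC, in 12.4% of all windows) at 79 bases before the start. Among the other members, 1 Sgk1 window held a single metal response element core, and the AGAACA core is in neither metallothionein window.

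Of 16 further metal handling genes, 13 were tested and none was a DEG in the COPD mice model on either diet or over both. The median log2 fold change over both diets was -0.09, and -0.031 without replicate 2 of COPD/CD. Mtf1, the factor that binds the metal response elements, had 35.2 to 40.03 CPM in the COPD mice model and 36.9 to 43.7 CPM in control mice. Slc30a1, the zinc exporter that MTF1 also switches on, had 56.1 to 76.6 CPM and 55.2 to 70.9 CPM. Hmox1 (log2 fold change 1.06, SE 0.28, adjusted p = 0.183) and Ftl1 (0.94, SE 0.26, adjusted p = 0.207) were the 2 at an unadjusted p under 0.05, both higher, and were named after their values were seen. When replicate 2 of COPD/CD was left out, they became 0.64 and 0.55. Mt4 was at 0 in every library, and Mt3 was at or below 0.41 CPM.

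Other known glucocorticoid targets were set beside the members. Of 24 such genes, all tested, none was a DEG in any comparison with all 8 libraries. Over both diets 17 had a log2 fold change above 0, where 49.8% of all genes did, and the median was 0.31. At an unadjusted p under 0.05, 6 were higher and 1 lower, where 6.18% and 4.21% of all genes were. On the control diet 18 were above 0, against 51% of all genes (median 0.34). At that p level 7 were higher and 1 lower there, where 4.68% and 3.02% of all genes were. On the TJ-41 diet 16 were above 0, again against 49.8% (median 0.16). At that p level 2 were higher there, where 3.55% of all genes were, and none lower. The summed level of the list was 4741 CPM in replicate 2 of COPD/CD, 2916 to 3217 CPM in the other 3 COPD libraries and 2602 to 3142 CPM in control mice. Without that library 13 were above 0 over both diets (median 0.10) and 12 on the control diet (median 0.0024). Angptl4 then moved from -0.71 to -1.38 over both diets and from -1.33 to -2.68 on the control diet, and Lcn2 from 1.75 to 1.02 over both. The list shares Per1 with the clock list and Lcn2 and Cebpd with the acute phase list.

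The 7 genes at an unadjusted p under 0.05 over both diets were named after their values were seen. Per1, a clock gene that the receptor also switches on directly, had 97.5 to 219 CPM in the COPD mice model and 21.5 to 84.0 CPM in control mice (log2 fold change 1.21, SE 0.41, adjusted p = 0.343). Lcn2, an iron-binding acute phase protein, had 193 to 890 CPM and 92.4 to 140 CPM (1.75, SE 0.40, adjusted p = 0.126). For these 2 of the 24 genes the groups did not overlap, as for 3.35% of all genes in this direction. The remaining higher genes were Ddit4, an inhibitor of mTOR signalling (0.95, SE 0.35), Rgs2, a regulator of G protein signalling (0.71, SE 0.21), Zfp36, which speeds the decay of cytokine mRNAs (0.44, SE 0.14), and Sult1a1, a sulfotransferase (0.38, SE 0.16), with adjusted p-values of 0.245 to 0.446. Without replicate 2 of COPD/CD the values became 1.02 for Lcn2, 0.87 for Per1, 0.40 for Ddit4, 0.38 for Zfp36 and 0.24 for Sult1a1. That of Rgs2 rose to 0.89. Scnn1g, the gamma subunit of the epithelial sodium channel that Sgk1 acts on, was lower (-0.31, SE 0.12, adjusted p = 0.406), and at -0.35 without replicate 2 of COPD/CD. Scnn1a, another subunit of that channel on the list, had the higher mean in the model, 362.3 ± 80.17 CPM against 286 ± 24.97 CPM (SD, n = 4).

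**Figure D5:**
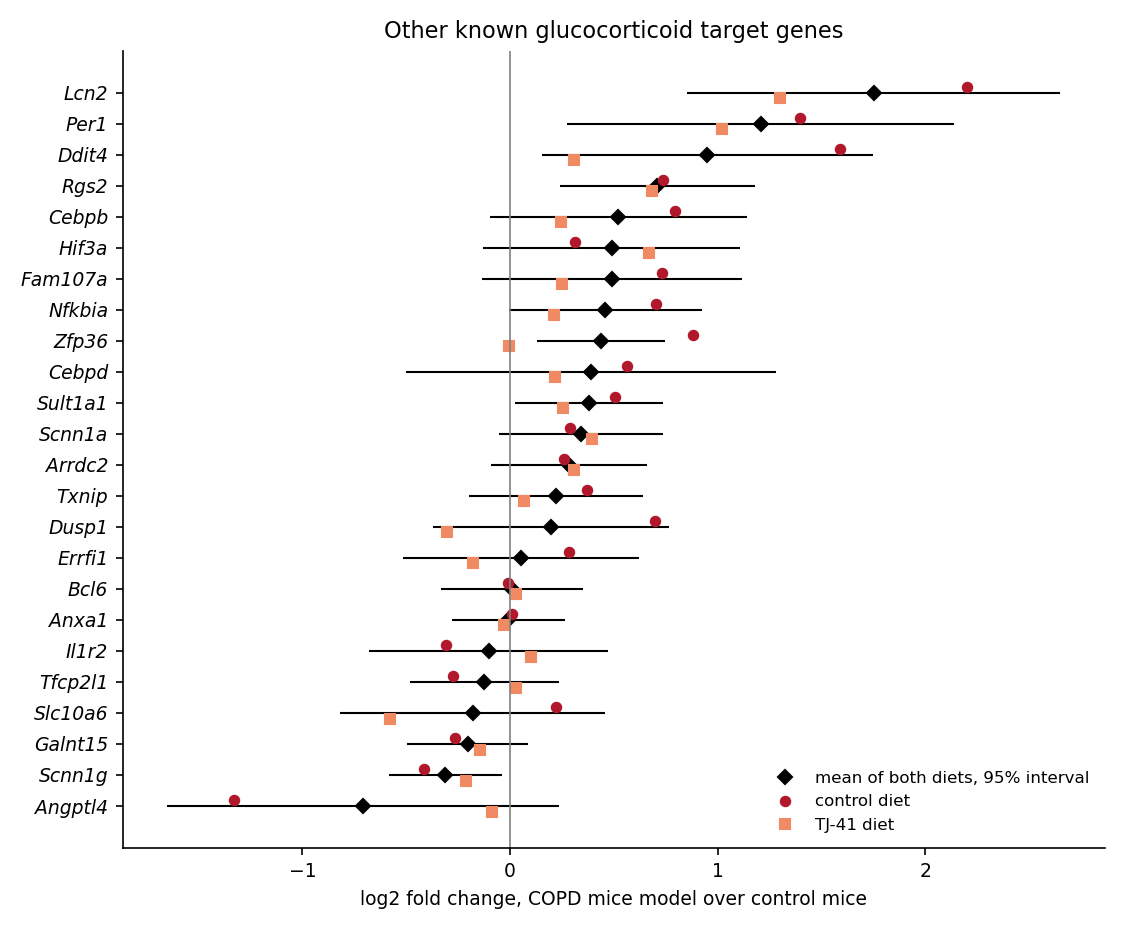
Log2 fold change of 24 other glucocorticoid target genes in the COPD mice model over control mice, ordered by the value over both diets (diamonds, with the 95% interval), with the control diet (circles) and TJ-41 diet (squares) values beside it. Most diamonds lie above 0, with a median of 0.31, and the control diet points lie farther from 0 than the TJ-41 points for Ddit4, Zfp36 and Angptl4, genes picked out after their values were seen. All libraries are included, among them replicate 2 of COPD/CD, without which the median is 0.10.

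Whether TJ-41 changes these genes was asked separately in the control and the COPD mice. None of the 10 genes was a DEG by the quasi-likelihood test, by DESeq2 or by the exact test in either; of all genes 0% were DEGs in control mice and 0.00487% in COPD mice. None of the 10 reached an unadjusted p under 0.05 in control mice. Among COPD mice Mt2 alone did so, lower, as for 2.1% of all genes. The median log2 fold change of the 10 genes was -0.09 for control mice and -0.16 for COPD mice, against -0.0018 and -0.015 for all genes. With replicate 2 of COPD/CD left out, the COPD median became 0.17. These comparisons use the same 8 libraries as those of the model.

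Fkbp5 stood at 19.8 ± 1.28 CPM (SD, n = 2) in PBS/TJ-41 and 20.1 ± 7.82 CPM in PBS/CD, a log2 fold change of -0.023 (95% interval -0.626 to 0.580). It stood at 37.1 ± 4.73 CPM in COPD/TJ-41 and 38.0 ± 6.24 CPM in COPD/CD (SD, n = 2), a log2 fold change of -0.036 (95% interval -0.629 to 0.556). Both intervals hold 0 and reach past 0.5 on either side, so a smaller change was not detectable.

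Nr3c1 and Mt1 were the members whose diet groups did not overlap in control mice. Nr3c1 was higher on the TJ-41 diet (log2 fold change 0.30, SE 0.19, adjusted p = 0.996), as 19.1% of all genes were by non-overlap. Mt1 was lower (-0.76, SE 0.54, adjusted p = 0.996), as another 19.1% were. Among COPD mice the diet groups did not overlap for Sgk1 alone, as for 14.1% of all genes higher there: replicate 1 had 102.8 CPM in COPD/CD and 102.9 CPM in COPD/TJ-41, and replicate 2 had 87.4 and 123 CPM (log2 fold change 0.25, SE 0.18, adjusted p = 0.991, and 0.14 without replicate 2 of COPD/CD).

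Among COPD libraries Mt1 had a log2 fold change of -1.07 (SE 0.53) and Mt2 of -2.14 (SE 0.92, 95% interval -4.22 to -0.07) on the TJ-41 diet, both with an adjusted p of 0.991. These values rest on the same library: without replicate 2 of COPD/CD they became 0.23 and 0.31, and without replicate 1 they became -1.74 (adjusted p = 0.0134) and -3.002 (adjusted p = 0.0164). Tsc22d3 had 0.42 (SE 0.53) in control mice, which became -0.64 without replicate 2 on the TJ-41 diet, and -0.88 (SE 0.53) in the COPD mice model, which became -0.16 without replicate 2 of COPD/CD. Zbtb16, Klf9, Cdkn1a and Pdk4 lay between -0.31 and 0.56 in both, with overlapping groups, and without that library Cdkn1a became 0.55 and Pdk4 0.21 in the COPD mice model. The difference between the diet effects in the COPD mice model and in control mice was tested directly. None of the 10 genes passed, nor did any of all genes (0%), the lowest unadjusted p was 0.114, and every adjusted p was 0.999.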

How the data were processed

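Lung RNA sequencing of 8 libraries was read from the deposited per-library tables, in which the authors gave unnormalized counts of reads per Ensembl gene. Per the labels, the processing notes name HISAT2, edgeR and the build mm10, and the study's methods name CLC Genomics Workbench. Tool versions, the counting program, annotation release, strand setting and treatment of multi-mapping reads are not given in the sources used here. Groups and replicate numbers came from the sample titles and treatments. Of 52636 gene identifiers, 52489 were found in GENCODE M21 (GRCm38), which gave symbols, positions and exon lengths.

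Counts were scaled by TMM (factors 0.9347 to 1.023), filtered with filterByExpr (minimum count 10, minimum total 15) and fitted as 4 group means with edgeR 4.0.16 in R 4.3.3, by the quasi-likelihood test with 4 residual degrees of freedom and Benjamini-Hochberg adjustment over 20546 genes. The common biological coefficient of variation was 0.208. The standard error was the log2 fold change over the root of F. The study's thresholds (false discovery rate under 0.05, log2 fold change beyond 1) defined DEGs. CPM were TMM-scaled, and RPKM used the exons of all transcripts joined. Totals of 18767295 to 20888042 counts per library set the precision. With 2 libraries a group, no permutation test of a single gene within a diet can reach 0.05.

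The 10 genes and all lists were chosen with earlier results of these data known. All 10 were named, as were DEGs of the other lists and the 5 genes most like Fkbp5 and Mt2 by Pearson r of log2 CPM over 8 libraries. By that rule Jchain and Ighm (plasma cell markers, higher) and Slc7a10 (adipocyte marker, lower) were DEGs in the COPD mice model. Outside that rule, genes at an unadjusted p under 0.05 and Angptl4 were named after their values were seen, and Sftpc, Scgb1a1, Scnn1a, Mtf1, Slc30a1, Mt3, Mt4 and Gm45774 for their known role or position. The lists hold other glucocorticoid targets, receptor machinery, metal handling, acute phase, clock, immediate early, fasting and p53 target genes and markers of lung and other cells. Promoter windows and their sequences are RefSeq's for GRCm38.p6, and motifs were searched on both strands. Proteins of Mt1 and Mt2 were not analysed here.

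Over all genes replicate numbers did not pair libraries, and replicates differed by 11.94 to 88.14 times the counting variance, so none was a copy. Alternatives were DESeq2 1.42.0, edgeR's exact test, RLE factors, library size alone, other filters, only the groups compared, a block by replicate number, no fold threshold, a loess correction for gene length and GC content (span 0.5) and leaving out each library. DESeq2 and the exact test without the fold threshold, a crossed block, and gene lists and other named genes without replicate 2 of COPD/CD, were chosen after seeing the data. The fit was tested on simulated data of the control diet comparison (20452 genes): it recovered 72 of 100 genes changed by 1.5 on the log2 scale and 92 of 100 changed by 2.5, with 15 false calls.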

Additional observations from a re-analysis of the deposited data

How the results depend on the processing

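The count of members among DEGs stayed at 0 in all but 4 of the 115 recomputed counts. Without replicate 1 of COPD/CD it became 4 on the control diet (Fkbp5, Tsc22d3, Mt1 and Mt2; range 0 to 4 over the libraries left out), 2 over both diets (Mt1 and Mt2; range 0 to 2) and 2 for the diet in the COPD mice model (Mt1 and Mt2; range 0 to 2). DESeq2 without the fold threshold gave 1 over both diets. A group left with 1 library was assumed to vary like the others. The cause of these changes was not tested. Sign changes touched 34 of 820 recomputed member values, and 6 of the 720 recomputed values of other named genes.

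For the model on the control diet, leaving out each library moved the log2 fold change of Zbtb16 from -0.0077 to 1.72, Cdkn1a from -0.78 to 0.56, Nr3c1 from -0.16 to 0.27, Mt1 from -0.36 to 1.61 and Mt2 from -0.70 to 2.61. Cdkn1a there was -0.033 with library size alone, -0.073 with the replicate block and -0.025 with the length and GC correction. On the TJ-41 diet Tsc22d3 moved from -0.69 to 0.97, Cdkn1a from -0.35 to 0.27, Pdk4 from -0.75 to 0.25 and Mt2 from -0.38 to 1.22 as each library was left out, Tsc22d3 became 0.11 with the replicate block, and Nr3c1 became 0.024 with the length and GC correction. Over both diets Cdkn1a moved from -0.42 to 0.24, Nr3c1 from -0.18 to 0.036 and Mt2 from -0.027 to 1.62, and Nr3c1 became 0.062 with the length and GC correction. For the diet in control mice Fkbp5 moved from -0.38 to 0.43, Tsc22d3 from -0.64 to 1.01 and Sgk1 from -0.047 to 0.29, and Fkbp5 became 0.019 with the replicate block. For the diet in the COPD mice model Fkbp5 moved from -0.19 to 0.14, Nr3c1 from -0.18 to 0.25, Mt1 from -1.74 to 0.23 and Mt2 from -3.16 to 0.31, and Fkbp5 became 0.016 with library size alone. Among the other named genes, leaving out each library moved Snrpe from -0.025 to 0.63, Ppp1r11 from -0.043 to 0.35 and Fez2 from -0.078 to 0.17 over both diets, and, for the diet in the COPD mice model, Saa3 from -3.35 to 0.43 and Orm1 from -2.43 to 0.11.

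Counts over all genes depended on the test. On the control diet 25 genes were DEGs, against 174 with DESeq2, 210 with the exact test, 147 with all genes that had a count and 3 to 1343 as each library was left out. On the TJ-41 diet there were 16, against 125, 137 and 89, 248 with only the groups compared, 28 with the length and GC correction and 2 to 168 without a library. Over both diets there were 91, against 249 with DESeq2, 278 with all genes and 15 to 873 without a library. For the diet there were 0 in control mice, against 10 with DESeq2, 6 with the exact test and 5 with only the groups compared, and 1 in the COPD mice model, against 14, 6 and 0, 2 with all genes and 0 to 728 without a library. For the difference of the diet effects there were 0, against 17 with DESeq2, 6 with all genes and 0 to 14 without a library.

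Over all genes the replicate numbers did not pair the libraries: correlations of replicate differences between groups ran from -0.234 to 0.108. Of the 10 members, replicate 2 had the higher value for 7 in PBS/CD, 9 in PBS/TJ-41, 7 in COPD/CD and 7 in COPD/TJ-41. For Fkbp5, Tsc22d3 and Cdkn1a it did so in every group, and the reason was not tested. The replicate block changed no member's call, left 0 members among DEGs in each comparison and gave 21 DEGs of all genes on the control diet, 18 on the TJ-41 diet, 74 over both and 0 for the diet in the COPD mice model. Crossing the numbers of COPD/CD gave 36 for the model on the control diet. With 2 libraries a group, intervals of 1 or more on the log2 scale limit what can be seen for Mt1, Mt2, Tsc22d3 and Zbtb16.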

Other observations

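Other lists set beside the members held no DEG except those for the clock, plasma cells and adipocytes. Of 14 acute phase genes, 12 were tested and 9 had a log2 fold change above 0 in the COPD mice model over both diets (median 0.21), against 49.8% of all genes. Without replicate 2 of COPD/CD, the library with the highest sum of this list, 6 were above 0 (median -0.0099). With all libraries, those at an unadjusted p under 0.05 were Lcn2 (1.75), Saa3 (2.52), Orm1 (1.74) and Lrg1 (1.64), named after their values were seen, and without that library they became 1.02, 1.08, 0.86 and 0.88. In COPD/TJ-41 against COPD/CD, Saa3 (-2.46) and Orm1 (-1.66) had values below 0, each with an adjusted p of 0.991, and without replicate 2 of COPD/CD the values turned to 0.43 and 0.11. Of 12 immediate early genes, 12 were above 0 in COPD/CD against PBS/CD (median 0.49) and 10 were below 0 in COPD/TJ-41 against PBS/TJ-41 (median -0.22). COPD/TJ-41 against COPD/CD gave a median of -0.74, with 6 of the 12 lower at an unadjusted p under 0.05, where 2.1% of all genes were. None was a DEG. The summed level of this list was 1346 CPM in replicate 2 of COPD/CD and 827.8 CPM in replicate 1. Without replicate 2 of COPD/CD, 6 of the 12 were above 0 in COPD/CD against PBS/CD (median -0.016). COPD/TJ-41 against COPD/CD then gave a median of -0.32, with 8 of the 12 below 0.

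Among cell type markers, 8 of 8 plasma cell genes were above 0 in the COPD mice model over both diets (median 1.16), where 49.8% of all genes were. Their summed levels were 2328 to 4280 CPM against 921.2 to 1479 CPM in control mice. Of the 8, 2 (Jchain and Ighm) were DEGs, where 0.443% of all genes were. At an unadjusted p under 0.05, 6 were higher, where 6.18% of all genes were. Endothelial markers had 6 of 6 values below 0 (median -0.25), with summed levels of 2281 to 2545 CPM against 2594 to 3102 CPM. None of the 6 was a DEG, and 2 were lower at an unadjusted p under 0.05, where 4.21% of all genes were. Medians over both diets were 0.53 for macrophage markers, 0.44 for adipocyte markers, 0.20 for AT2 cell markers, 0.032 for AT1 cell markers, 0.18 for red cell genes, 0.0092 for cardiac markers, -0.17 for club cell markers and -0.083 for the 6 neutrophil markers tested. For each of these lists the summed levels of the COPD and control libraries overlapped. Without replicate 2 of COPD/CD the medians became 0.37 for macrophage, 0.20 for adipocyte, 0.18 for AT2 cell and -0.105 for AT1 cell markers. They became 0.0086 for red cell genes, -0.11 for cardiac markers, -0.39 for club cell markers and 0.26 for the 7 neutrophil markers then tested. All 8 cardiac markers were lower at an unadjusted p under 0.05 in COPD/TJ-41 against COPD/CD (median -1.12), where 2.1% of all genes were. None was a DEG. With replicate 2 of COPD/CD left out, 8 of the 8 were still below 0, with a median of -0.89.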
